A study of Homo sapiens with 6 samples.

Results

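The mRNA expression of 10 genes of the S100 family of calcium-binding proteins was followed in SW480 cells, an established human colon cancer line, after knockdown of the splicing factor RBM39. They were taken by symbol (S100A2, S100A3, S100A4, S100A6, S100A10, S100A11, S100A13, S100A14, S100A16 and S100P), and all 10 were present among the 56303 genes of the count table and among the 18243 genes that passed the expression filter. The study compared 3 libraries of cells carrying a nonsilencing control hairpin (shCtrl, genotype given as WT) with 3 libraries of cells carrying a hairpin against RBM39 (shRBM39, genotype given as RBM39 knockdown). Both hairpins were delivered by lentivirus and the cells were selected as stable clonal lines with puromycin, so every library shares the infection and the selection, and clone and hairpin cannot be told apart. The number of hairpins or clones behind the 3 replicates is not given in the sources used here. The study describes its replicates as independent experiments, and the labels name no separate infections or clones, so the p-values measure the spread between these libraries.

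S100 proteins are small proteins with a pair of EF-hands, the helix-loop-helix fold that holds a calcium ion. Most form dimers, and calcium binding opens a surface with which the dimer grips a partner such as an annexin, a myosin heavy chain or p53. Most of their genes lie together in a cluster on chromosome 1q21, whereas S100P lies apart on chromosome 4. In epithelia and in carcinomas the family is known for links to the cytoskeleton, to cell movement and, for members that leave the cell, to receptors such as RAGE. RBM39 is an RNA-binding protein of the spliceosome.

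The hairpin lowered its target. RBM39 stood at 441, 448 and 435 CPM (counts relative to the TMM-scaled library total) in shCtrl and at 266, 276 and 292 CPM in shRBM39, a fall of 37.0% (log2 fold change -0.67, SE 0.04, adjusted p = 1.24e-16, edgeR quasi-likelihood test with Benjamini-Hochberg adjustment, as for every adjusted p here unless another tool is named). The libraries held 18042924 to 20428901 counts. Of the 18243 genes tested, 59.1% passed an adjusted p of 0.05, with 29.2% higher and 29.9% lower in shRBM39. A call by itself was therefore common in this comparison. In bulk RNA, fewer cells with a transcript and less of it per cell cannot be told apart. Of the epithelial markers, 8 of 10 exceeded 1 CPM, and their summed level was 11724 to 12552 CPM in shCtrl and 14775 to 15349 CPM in shRBM39. Of the 8 tested, 2 rose and 4 fell. Within that list KRT8 rose (log2 fold change 0.43) and CDX2, the intestinal homeobox factor, fell (-2.13). KRT8 made up most of the summed level, at a mean of 6924 CPM in shCtrl and 9309 CPM in shRBM39. The leukocyte markers summed to 1.60 to 2.63 and 2.58 to 3.78 CPM with PTPRC at 0. LYZ, the only leukocyte marker tested, rose (log2 fold change 1.03, adjusted p = 0.000101, at 19 to 55 counts per library). The 8 fibroblast markers summed to 11.7 to 12.8 and 16.7 to 17.5 CPM with none at 0, and 3 of them exceeded 1 CPM. Of the 4 fibroblast markers tested, COL1A1 (log2 fold change 0.81) and THY1 (1.99, at 4 to 25 counts per library) rose. LUM (-0.08) and PDGFRB (0.22) did not pass the test. The part of these shifts in the results below was not tested.

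The stretch of DNA before the transcription start is shown for the members that fell, S100P and S100A14, and for S100A4 and S100A2, the members with the highest log2 fold changes, since the comparison turns on these genes moving apart. The sequences are RefSeq promoters (GRCh38.p14), written 5′ to 3′ on the gene's own strand and ending at the base before the start, except that S100A14 stops 31 bases before it because the bases after that lie in annotated exon. They were read from chr4:6693628-6693877 on the plus strand for S100P and, on the minus strand, from chr1:153616356-153616575 for S100A14, chr1:153545807-153546056 for S100A4 and chr1:153565845-153566094 for S100A2. Each window lies inside the wider span that the count table gives to its gene, which includes longer transcripts. Capitals mark TATAAA, the TATA box, in S100P and S100A4, and a match to TGANTCA, the motif of the AP-1 factors, in S100A2.
S100P: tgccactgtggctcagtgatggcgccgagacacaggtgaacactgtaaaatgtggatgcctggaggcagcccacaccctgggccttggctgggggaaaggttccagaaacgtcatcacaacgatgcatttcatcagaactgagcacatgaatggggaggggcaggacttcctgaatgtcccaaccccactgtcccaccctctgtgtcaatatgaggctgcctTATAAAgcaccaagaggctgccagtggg
S100A14: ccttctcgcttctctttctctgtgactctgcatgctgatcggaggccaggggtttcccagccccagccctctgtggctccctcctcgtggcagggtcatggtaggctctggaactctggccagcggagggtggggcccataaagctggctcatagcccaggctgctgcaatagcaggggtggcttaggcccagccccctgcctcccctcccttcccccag
S100A4: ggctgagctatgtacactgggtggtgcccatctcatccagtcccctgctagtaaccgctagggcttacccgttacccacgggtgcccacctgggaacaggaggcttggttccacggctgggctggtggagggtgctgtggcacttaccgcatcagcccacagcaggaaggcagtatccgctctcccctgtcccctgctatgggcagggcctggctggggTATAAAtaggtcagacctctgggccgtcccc
S100A2: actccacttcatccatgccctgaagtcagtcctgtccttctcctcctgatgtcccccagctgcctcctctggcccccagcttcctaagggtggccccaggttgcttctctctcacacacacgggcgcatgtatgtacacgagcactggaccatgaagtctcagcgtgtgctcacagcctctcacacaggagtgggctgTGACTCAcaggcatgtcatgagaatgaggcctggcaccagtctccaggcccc

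The 250 bases before the start were searched on both strands, in 14 RefSeq promoters of the 10 genes, for TATAAA (the TATA box), CCAAT (the CCAAT box of NF-Y), GGGCGG (the GC box of Sp1), TGANTCA (the motif of AP-1) and CTTTGNT (the motif of TCF and LEF factors). TATAAA was found in 3 of the 14 promoters, 28 to 23 bases before the start of S100P, 31 to 26 before that of S100A4 and 29 to 24 before that of S100A13, and it occurred in 10.7% of 35116 promoters of this length. Of these genes S100P fell, and S100A4 and S100A13 rose. A link between the motif and the direction of change was not tested. GGGCGG was found in 6 of the 14 promoters (S100A3, S100A6, S100A10, S100A11, S100A13 and S100A16) against 42.6% of all promoters. CCAAT was found in 3 of the 14 (S100A3, S100A13 and S100A16) against 32.0%. TGANTCA lay 52 to 46 bases before the start of S100A2 and 225 to 219 before that of S100A3, against 6.57% of all promoters. CTTTGNT was in none of the members' windows and in 13.2% of all promoters, and no match overlapped another. The S100A14 window held none of the 5 motifs. These matches describe letters in a window and nothing about binding.

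The S100 genes did not move as a group after RBM39 knockdown. Of the 10 members, 7 rose, 2 fell and S100A11 did not pass the test, so 9 of 10 were called, beside 59.1% of all genes tested. The 7 that rose compare with 29.2% of all genes and the 2 that fell with 29.9%. With libraries scaled by their totals alone, 6 members rose and 3 fell, and 33.9% of all calls were rises in place of 49.4%. The median log2 fold change of the members was 0.34, beside -0.01 over all genes. The 3 values of each group did not overlap for 9 members, beside 63.3% of all genes. With the call limited to genes at least 0.5 away from 0 on the log2 scale, 6 members remained (S100P, S100A14, S100A2, S100A4, S100A3 and S100A16), beside 25.3% of all genes.

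In RPKM, which divides by merged exon length so that different genes can be set side by side, the members covered a wide range. That length joins all annotated exons of a gene, such as 680 bases for S100A11 and 1543 for S100A10. The order between genes depends on it, and the length of the transcripts expressed was not measured. S100A6 was the most abundant, at 299.8 ± 15.9 RPKM (SD, n = 3) in shCtrl, above 99.2% of the genes tested. S100A11 followed at 156 ± 10.9, then S100A10 at 81.7 ± 3.44, S100A4 at 78.7 ± 4.44, S100A16 at 66.1 ± 2.87, S100P at 38.1 ± 0.33, S100A13 at 24.6 ± 0.99, S100A14 at 21.6 ± 0.77, S100A3 at 5.01 ± 0.54 and S100A2 at 3.42 ± 0.36 RPKM. Only S100A10 and S100A4 had overlapping values among neighbours in that order. In shRBM39 the order differed in the middle. S100A4, at 110.0 ± 2.49 RPKM, and S100A16, at 88.9 ± 2.16, stood above S100A10, at 83.3 ± 4.004, with no overlap between neighbours. S100A16 and S100A10 all but touched, however, since the lowest S100A16 value and the highest S100A10 value were both 86.4 RPKM. S100P, at 8.34 ± 1.62 RPKM, dropped from the sixth to the eighth place, where its values overlapped those of S100A14 (10.1 ± 0.60) above it and of S100A3 (6.84 ± 0.62) below it. S100A6 alone made up 33.5% to 34.2% of the members' counts in shCtrl and 35.4% to 36.1% in shRBM39. The 10 genes together took 0.0817% to 0.0888% of all counts in shCtrl and 0.0888% to 0.0944% in shRBM39.

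**Figure D1:**
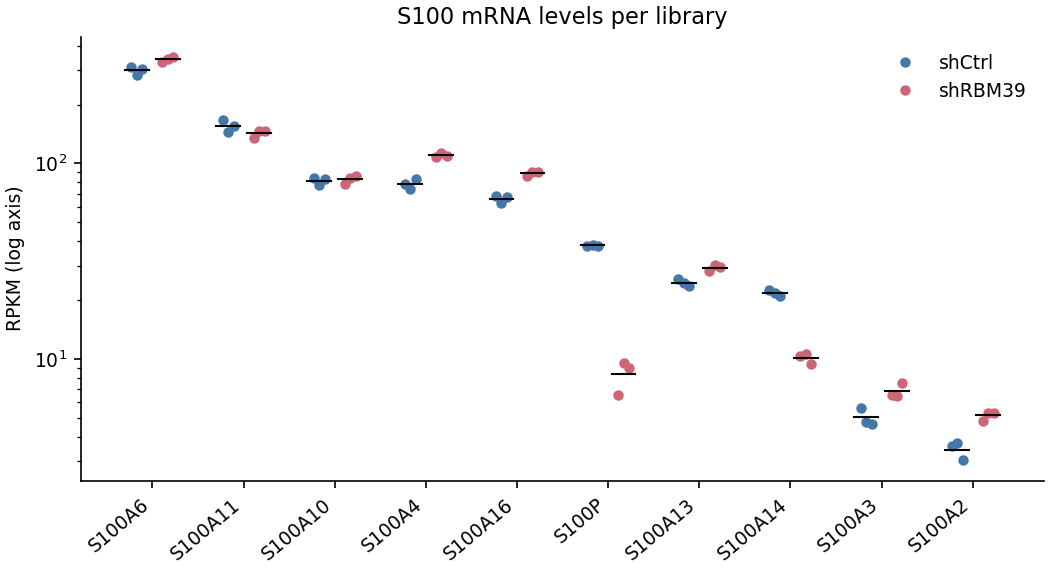
RPKM of the 10 S100 genes on a log axis, ordered by the shCtrl mean, with a point per library (3 shCtrl, blue, and 3 shRBM39, red) and a bar at each group mean. S100P and S100A14 sit lower in all 3 shRBM39 libraries, while S100A4 and S100A16 sit higher.

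S100P and S100A14 were the members that fell. S100P, first found in placenta, binds the membrane linker ezrin and, once released, the receptor RAGE. It was counted 945, 995 and 945 times in the shCtrl libraries and 170, 221 and 232 times in the shRBM39 libraries, or 46.9, 46.9 and 46.5 CPM against 8.68, 12.8 and 11.98 CPM. The control libraries lay close together and far above the knockdown libraries, of which replicate 1 was the lowest. S100P fell 4.21-fold (log2 fold change -2.07, SE 0.08, 95% interval -2.23 to -1.92, adjusted p = 5.59e-22). A called fall of at least 1 on the log2 scale was seen in 4.16% of all genes, and S100P was the only member among them. Its spread was uneven, with a coefficient of variation of 0.46% in shCtrl, where counting alone would give 3.22%, and of 19.7% in shRBM39, where counting alone would give 6.94%. Without shRBM39 replicate 1 the log2 fold change was -1.91.

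S100A14 is a member with weak calcium binding, reported to pair with S100A16 and to bind the receptor tyrosine kinase ERBB2. Its counts were 558, 558 and 517 in shCtrl and 269, 244 and 244 in shRBM39, which gave 27.7, 26.3 and 25.4 CPM against 13.7, 14.2 and 12.6 CPM. The groups were far apart, and the spread in each (4.28% and 6.02%) was about that of counting alone (4.29% and 6.30%). S100A14 fell by 49.1% (log2 fold change -0.97, SE 0.07, adjusted p = 3.58e-14).

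S100A4, S100A16, S100A3 and S100A2 rose by between 46.6% and 62.7%. S100A4, also called metastasin, binds the heavy chain of non-muscle myosin and is a marker of mesenchymal and migrating cells. It stood at 78.01, 72.6 and 81.6 CPM in shCtrl and at 115, 121 and 117 CPM in shRBM39. All 3 knockdown libraries lay above all 3 controls, with a log2 fold change of 0.61 (SE 0.04, adjusted p = 4.24e-14). S100A16, a broadly expressed member, stood at 113, 102 and 109 CPM in shCtrl and at 153, 161 and 160.4 CPM in shRBM39. Its groups were also separate, with a log2 fold change of 0.55 (SE 0.04, adjusted p = 9.77e-14).

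S100A2 and S100A3 were the least abundant members, and their estimates were the least precise. S100A2 is a nuclear member that binds p53. Its counts were 109, 117 and 92 in shCtrl and 154, 150 and 167 in shRBM39, or 5.41, 5.51 and 4.53 CPM against 7.86, 8.71 and 8.62 CPM. The groups did not overlap, and the log2 fold change of 0.70 had a 95% interval of 0.48 to 0.93 (SE 0.11, adjusted p = 1.61e-06). S100A3, a cysteine-rich member best known from the hair cuticle, was counted 105, 92 and 86 times in shCtrl and 127, 111 and 146 times in shRBM39, or 5.21, 4.33 and 4.23 CPM against 6.48, 6.45 and 7.54 CPM. The shRBM39 values were higher throughout, with a log2 fold change of 0.57 and an interval of 0.33 to 0.82 (SE 0.12, adjusted p = 0.000134). The intervals of S100A2, S100A3, S100A4 and S100A16 overlapped, and differences among these 4 rises were not tested.

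S100A13, S100A6 and S100A10 rose less. S100A13, which takes part in the release of FGF1 and IL1A outside the classical secretory route, stood at 54.9, 51.9 and 49.96 CPM in shCtrl and at 65.1, 69.8 and 68.2 CPM in shRBM39. The groups were separate and the rise was 29.5% (log2 fold change 0.37, SE 0.05, adjusted p = 1.76e-08). S100A6, or calcyclin, the member whose partners include CACYBP and several annexins, stood at 294, 261 and 283 CPM in shCtrl and at 334, 348 and 356 CPM in shRBM39. Every knockdown library was above every control, and the rise was 23.7% (log2 fold change 0.31, SE 0.04, adjusted p = 6.03e-08). With libraries scaled by their totals alone the log2 fold changes were smaller, at 0.25 for S100A13 and 0.18 for S100A6, and both still passed the test.

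S100A10 and S100A11 were at or near the level of the controls. S100A10, or p11, is the member that no longer binds calcium and that joins a pair of annexin A2 molecules at the membrane. It stood at 126, 114 and 123 CPM in shCtrl and at 127, 137 and 139 CPM in shRBM39. The lowest knockdown value exceeded the highest control value by little. The log2 fold change of 0.15 (SE 0.04, adjusted p = 0.00302) was 0.03 when libraries were scaled by their totals alone (adjusted p = 0.598), a scaling under which the median of all genes moved by -0.12. S100A11, a partner of annexin A1 in membrane traffic and repair, stood at 109.9, 93.8 and 101 CPM in shCtrl and at 95.6, 104 and 105 CPM in shRBM39. The groups overlapped, and the log2 fold change of -0.01 had an interval of -0.10 to 0.09 (SE 0.05, adjusted p = 0.928). With library totals alone it was -0.13 and passed the test (adjusted p = 0.0159).

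**Figure D2:**
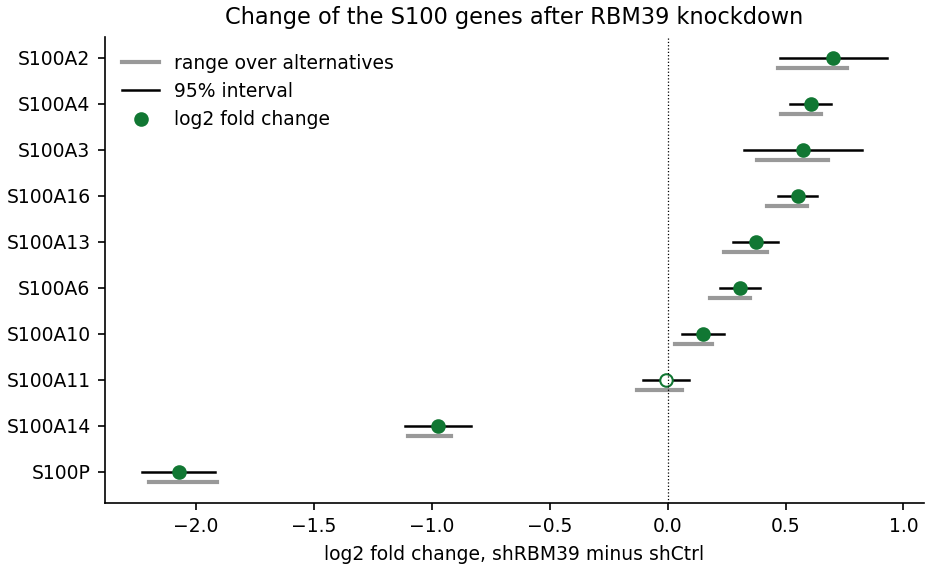
Log2 fold change (shRBM39 minus shCtrl) of the 10 members with its 95% interval (black) and, below each, the range over all alternative settings (grey). A filled point passed the adjusted p of 0.05. S100P and S100A14 lie left of 0, 7 genes lie right of it and S100A11 lies on it.

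Ratios of counts between members do not depend on how the libraries were scaled. They were picked after the values were seen and are given as a description. There were 24.6, 25.8 and 23.3 counts of S100A14 per 100 counts of S100A16 in shCtrl and 8.95, 8.82 and 7.86 in shRBM39. The same held beside its other neighbour, with 50.7 ± 0.24 counts of S100A14 per 100 of S100A13 in shCtrl and 20.0 ± 1.33 in shRBM39 (SD, n = 3). S100P gave 16.8 ± 1.06 and 3.22 ± 0.56 counts per 100 of S100A6. These ratios fell in each knockdown library. S100A4 gave 27.7 ± 1.16 counts per 100 of S100A6 in shCtrl and 34.1 ± 1.0 in shRBM39, and S100A16 gave 38.6 ± 0.39 and 45.8 ± 0.60. Both were higher in every knockdown library. S100A11 gave 84.0 ± 2.83 counts per 100 of S100A10 in shCtrl and 75.4 ± 0.41 in shRBM39.

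All members except S100P lie in the 1q21 cluster (GRCh38), all on the minus strand, from S100A10 at chr1:151982915-151994390 to S100A13 at chr1:153618787-153631360. S100P lies at chr4:6693069-6697170. S100A10 and S100A11 form a pair 1486691 bases from the rest and changed least. In the other stretch, the members S100A6, S100A4, S100A3, S100A2 and S100A16 rose, while S100A5, which is no member and lies between S100A6 and S100A4, did not pass the test. S100A14, at chr1:153614255-153616986, fell between S100A16 and S100A13, which both rose, with gaps of only 1109 and 1800 bases to these neighbours. S100A3 lies inside the span of S100A4 but shares no exon base with it. S100A13 shares 536 exon bases, 24.2% of its exons, with RP1-178F15.5 on the same strand, whose level also rose (log2 fold change 0.45, adjusted p = 1.9e-10). It also shares 235 exon bases with S100A1 on the opposite strand. The library kit keeps strand, but whether the counting used it is not given in the sources used here, so reads in these stretches may be split or shared between the genes.

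**Figure D3:**
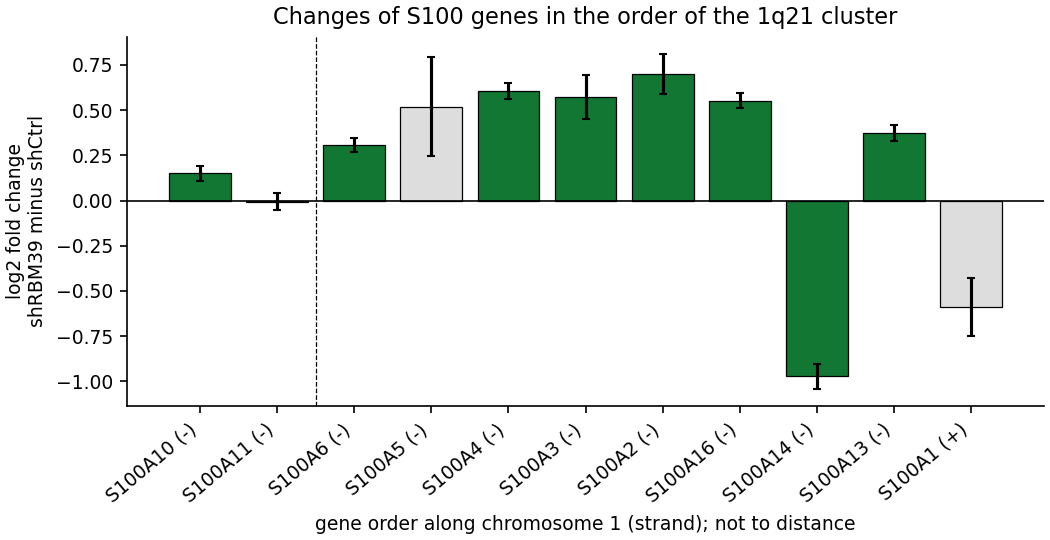
Log2 fold change (shRBM39 minus shCtrl, bars with SE) of the tested S100 genes in their order along chromosome 1, with members in green and S100A1 and S100A5 in grey; the dashed line marks the gap of 1486691 bases. S100A14 points down between S100A16 and S100A13, which point up.

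Of the 6 tested genes of this region outside the S100 family, 33.3% were called, beside 59.1% of all genes tested. TCHH and RP1-178F15.5, the gene that shares exon bases with S100A13, rose and none fell. TCHH, the trichohyalin gene of the S100-fused family, stood at 0.30, 0.66 and 0.44 CPM in shCtrl and at 1.33, 1.16 and 1.08 CPM in shRBM39. This was a log2 fold change of 1.33 (SE 0.31, adjusted p = 0.000438) at a level of few counts. FLG, HRNR, FLG-AS1 and BX470102.3 did not pass the test, with log2 fold changes of -0.53, -0.26, 0.25 and -0.12.

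Among the 11 other S100 family genes, 2 were tested. S100A1, best known from heart muscle, was counted 76, 75 and 67 times in shCtrl and 43, 41 and 48 times in shRBM39. It fell, with a log2 fold change of -0.59 (SE 0.16, adjusted p = 0.00201), while the overlapping S100A13 rose. On the opposite strand S100A1 also shares 320 exon bases, 10.6% of its exons, with RP1-178F15.4 and 34 with RP1-178F15.5. Since the strand setting of the counting is not given, some S100A1 counts may come from these genes. S100A5 gave 18, 12 and 22 counts against 24, 21 and 23, a log2 fold change of 0.52 that did not pass the test (adjusted p = 0.102). S100B, the astrocyte marker, had 1 count in each shCtrl library and 3 in each shRBM39 library and was not tested. S100A9 had 1 count in all. The other 7 (S100A7, S100A7A, S100A7L2, S100A8, S100A12, S100G and S100Z) had no count in any library, which with a floor of 3 counts allows up to 0.141 to 0.174 CPM per library, counting error only. They include S100A8, which pairs with S100A9 as calprotectin in myeloid cells, and the psoriasin genes of skin.

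Genes that encode partners and receptors of the S100 proteins moved in both directions. Of 29 listed genes 28 were tested, 14 rose, 7 fell and 7 did not pass the test, so 21 of 28 were called beside 59.1% of all genes, with a median log2 fold change of 0.15. IL1A was not tested. The 4 with the highest called values were TLR4 (1.63), a receptor named for S100A8 and S100A9, PLAT (1.17), the plasminogen activator that binds the S100A10 complex, CACYBP (0.79) and MYH10 (0.62), a non-muscle myosin heavy chain. The 4 with the lowest were FGF1 (-1.08), ALCAM (-1.06), a cell adhesion molecule listed as a receptor, SYT1 (-0.77) and AHNAK (-0.45), a giant scaffold bound by S100A10 with annexin A2. TLR4 and FGF1 were scarce, at 6 to 28 and 9 to 33 counts per library. Both dropped out with a minimum of 10 counts in every library, which left 19 partners called.

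Set beside their members, partners did not share a direction. CACYBP rose from 215 ± 7.63 to 371 ± 16.9 CPM (SD, n = 3, adjusted p = 2.86e-18), a rise of 0.79 on the log2 scale beside 0.31 for S100A6. ANXA2, which forms the tetramer with S100A10, rose from 271 ± 14.9 to 394 ± 11.1 CPM (log2 fold change 0.54, adjusted p = 7.67e-14), beside 0.15 for S100A10. The counts of S100A10 per 100 counts of ANXA2 were accordingly 44.6 ± 0.98 in shCtrl and 34.1 ± 1.06 in shRBM39, lower in all 3 knockdown libraries. FGF1 and SYT1, which leave the cell with S100A13 in its release complex, fell while S100A13 rose. FGF1 was scarce, at 0.99, 1.04 and 1.62 CPM in shCtrl and 0.61, 0.64 and 0.46 CPM in shRBM39. For S100P, neither S100PBP, its nuclear binding protein (10.1 ± 0.38 and 10.4 ± 0.65 CPM, log2 fold change 0.04, adjusted p = 0.686), nor AGER, which encodes RAGE (3.34 ± 0.60 and 3.17 ± 0.53 CPM, -0.07, adjusted p = 0.714), passed the test.

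Other EF-hand genes also included rises and falls. Of 48 listed genes 40 were tested, 19 rose, 7 fell and 14 did not pass the test, so 65.0% were called beside 59.1% of all genes, with a median log2 fold change of 0.11. The 4 with the highest called values were CALB1 (1.63), which encodes calbindin, CETN2 (1.07), a centrin of the centrioles, and the myosin light chain genes MYL9 (1.01) and MYL6 (0.84). The lowest were CALB2 (-1.92), the calretinin gene, CALML4 (-0.62), a light chain of brush border myosin, EPS15 (-0.36), an endocytic adaptor, and PLS1 (-0.30), the plastin of intestinal microvilli. CALB1 and CALB2 were both scarce, with CALB2 at 1.69, 1.22 and 1.18 CPM in shCtrl and at 0.36, 0.29 and 0.41 CPM in shRBM39. MYL6 was abundant, at 487 ± 8.74 CPM in shCtrl and 869.8 ± 18.2 CPM in shRBM39.

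**Figure D4:**
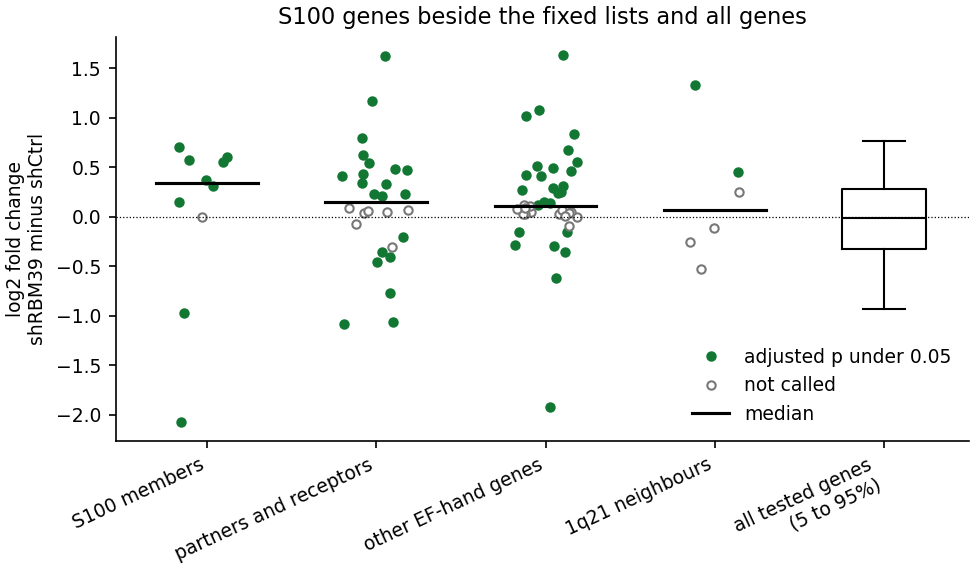
Log2 fold change (shRBM39 minus shCtrl) of each tested gene in the S100 members, the partner, EF-hand and 1q21 neighbour lists, with medians, beside a box of all 18243 genes (box, middle 50%; whiskers, 5% to 95%). S100P and S100A14 lie below the lower whisker, and the members' median of 0.34 lies above the all-gene median of -0.01.

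The genes whose log2 CPM followed that of S100P most closely over the 6 libraries were MEF2B, DDHD2 and RP11-442H21.2, out of 12058 genes with at least 5 CPM on average. Pearson's r was 0.9994, 0.9989 and 0.9989. Since the libraries fall into 2 groups, any gene that fell evenly scores high, so these values are a description. MEF2B, a transcription factor gene, went from 18.2 to 5.60 CPM, RP11-442H21.2 from 263 to 61.8 CPM and DDHD2, a phospholipase gene, from 30.1 to 22.1 CPM.

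The deposited splicing table held 1582 records of alternative events, and none carried an S100 symbol. Of the partners, 4 had a record each. The table names its groups only as 1 and 2, so no direction relative to the knockdown can be given. A skipped exon of PPFIBP1, a liprin bound by S100A4, was included at levels of 0.123, 0.126 and 0.193 in the libraries of the first group and 0.283, 0.321 and 0.341 in those of the second, with at least 124 reads for the event in each library. Mutually exclusive exons of SYT1 had 0.681, 0.72 and 0.73 against 0.848, 0.845 and 0.855, on at least 37 reads. In both events, and in that of ANXA11 below, the groups did not overlap. The share of all 1582 records without overlap was not computed, so this is a description only. The skipped exon events of ANXA2 (0.939, 0.698 and 0.629 against 0.928, 0.939 and 0.943) and ANXA11 (0.871, 0.574 and 0.702 against 0.366, 0.428 and 0.473) rested on as few as 15 and 9 reads, and the ANXA2 groups overlapped.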

How the data were processed

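RNA-seq libraries from 3 shCtrl and 3 shRBM39 samples of SW480 cells were analysed. Per the labels the kit was a stranded mRNA kit, and the submitters' processing notes name Trimmomatic 0.36, STAR 2.5.3a, featureCounts (Subread 1.5.1), edgeR 3.12.1 and GRCh38. The study's methods name a library type with molecular identifiers, and whether duplicates were collapsed, and the strand setting of the counting, are not given in the sources used here. The deposited counts are whole reads per gene, and the deposited RPKM values equal those counts divided by merged exon length and library total (largest relative difference 1.2e-13), so they carry no composition scaling. The splicing table was made by the authors with rMATS, and its inclusion levels were used as deposited. The authors' own comparison columns (p-values and inclusion differences of the splicing table) were not used.

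Counts were filtered with filterByExpr, scaled by TMM and tested with edgeR 4.0.16 (quasi-likelihood, R 4.3.3, both groups, no covariate), with Benjamini-Hochberg adjustment over the 18243 genes tested and a threshold of 0.05. The self-test used simulated counts with known changes. The biological coefficient of variation was 0.035. Within each group every pair of libraries differed by more than counting noise (chi-square per degree of freedom 2.01 to 3.90), so all 6 were kept as separate samples. Exons were those of the count table, and 86.7% of the members' exons are also in GENCODE v44.

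All 10 members were named, and every other S100 gene with at least 10 counts. From the partner, EF-hand and 1q21 lists the 4 highest and 4 lowest called genes were named, with S100PBP, ANXA2, CACYBP and AGER, and for S100P the 3 most correlated genes. TCHH and RP1-178F15.5 were the only called genes of the 1q21 list. The members and lists were chosen with earlier results of these data known. The alternatives tried were scaling by library totals or upper quartiles, DESeq2 1.42.0, other filters, limma-trend (limma 3.58.1) on log2(RPKM + 1) and log2(RPKM + 0.1), length and GC corrections, a replicate block, a threshold of 0.01, a test against 0.5 and leaving out each library.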

Additional observations from a re-analysis of the deposited data

How the results depend on the processing

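The directions of S100P, S100A14, S100A4, S100A16, S100A2, S100A3, S100A13, S100A6 and S100A10 were kept under all 18 alternatives with a fold change of their own, and the number of members called was 9 under all 19 alternatives except both RPKM fits (8) and the test against 0.5, although with library totals S100A11 took the place of S100A10. The test against a log2 change of 0.5 left 3 members (S100P, S100A14 and S100A4), 1 other family gene of 2, counting TCHH with S100A1, 6 partners of 21, 6 EF-hand genes of 26, 1 neighbour of 2 and 2232 genes of 10790. A minimum of 10 counts in every library left 1 other family gene and 1 neighbour, since TCHH was then no longer tested. S100A10 lost its call with library totals and in both RPKM fits (0.03 in each). The sign of S100A11, never past the test except with library totals (-0.13), turned under DESeq2 (0.00) and with no filter (0.00), under the GC and length correction (0.01) and without shCtrl replicate 1 or shRBM39 replicate 1 (-0.06 to 0.06 over the libraries left out). S100P ranged from -2.17 to -1.91 over the libraries left out.

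Library totals and the RPKM fits moved the split of all calls, of which 49.4% were higher with TMM, 33.9% with library totals and 33.6% on log2(RPKM + 1). Replicate numbers do not pair the libraries (correlations of same-numbered deviations -0.046 to 0.037). The replicate block left 9 members called, and with the GC and length correction S100A11 was 0.01. Depth limited S100A2 and S100A3, at 86 to 167 counts per library.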
